A study of Homo sapiens with 4 samples.

Results

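The genes described here sense sterols, control the sterol-responsive transcription factors, or bring cholesterol into the cell and move it inside. They are 8 of the 16174 genes listed for H9, a widely used human embryonic stem cell line kept in the primed state: INSIG1, SREBF1, SREBF2, SCAP, STARD4, TMEM97, NPC1 and NPC2. The genes were named by function, and the set was chosen from the TPM of the same 4 libraries, read between days of doxycycline and between guide sets. Their day and guide differences are therefore given as a description, with no test in support. All 8 were listed, and 5 of them (INSIG1, SREBF2, STARD4, TMEM97 and NPC2) averaged 1 TPM or more across the libraries.

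Each group of cells carried the same silencing system, a doxycycline-inducible, catalytically dead Cas9 fused to BFP and the KRAB repressor domain (TetO), delivered in a piggyBac vector by co-transfection with the hyPBase transposase. The SNHG26 arm received 4 pooled guides against SNHG26, a long noncoding RNA gene, and the control arm received non-targeting control guides. Both arms were seeded with Y-27632 for transfection, selected with puromycin and grown in mTeSR1 medium. Within each arm 1 library was made after 2 days of doxycycline and 1 after 3 days, so that the design holds 4 libraries, 2 per arm and 2 per day, with no culture kept without doxycycline among them. The labels do not say whether the libraries of an arm came from separate transfections, and the cells are described as selected populations, not as clones. With 1 library per arm and day, a difference between days within an arm cannot be told apart from a difference between those libraries.

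Poly(A) RNA was reverse-transcribed, amplified by PCR and sequenced on a nanopore instrument. The deposited unit is TPM, in which reads are divided by length and scaled to a fixed sum per library. From the values, the length used was inferred to be the genomic span of the transcript, introns included. The read numbers and counting intervals below depend on that inference. Depth was at most 947338 to 1220265 reads per library, and 10603 to 11162 genes had a value above 0. One read on a 10 kb span was worth 0.653 to 0.803 TPM, so that a gene spread over a long span can have a low TPM at a given read number. SNHG26 itself had 0 TPM on day 2 and 0.933 TPM on day 3 with SNHG26 guides, against 2.98 and 4.03 TPM with control guides. Of 12 markers of primed pluripotent cells 11 were listed, with a summed level of 1729 to 1945 TPM, while the listed markers of neuroectoderm, mesendoderm, amnion or trophectoderm, and fibroblasts summed to at most 4.66, 1.98, 6.00 and 11.9 TPM in any library.

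Animal cells hold their cholesterol within narrow limits through membrane-bound transcription factors, the sterol regulatory element-binding proteins, which SREBF1 and SREBF2 encode. SCAP escorts these precursors from the endoplasmic reticulum to the Golgi, where proteases release the active factor. When sterols are plentiful, INSIG1 and its relative INSIG2 hold SCAP back, and transcription of cholesterol synthesis and uptake genes falls. INSIG1 is itself a target of the factors, as is STARD4, a soluble carrier that moves cholesterol between membranes. NPC2 and NPC1 work in sequence in the lysosome, where NPC2 takes up cholesterol freed from lipoproteins and NPC1 passes it to the limiting membrane. TMEM97, also known as the sigma-2 receptor, binds NPC1 and is another sterol-responsive gene.

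Between the days, 3 of the 8 genes were lower on day 3 in both guide arms by at least 1.5-fold on the TPM + 1 scale: the sensor INSIG1, the carrier STARD4 and TMEM97. Among all genes tested 5.49% met that measure, and since the day difference helped to choose the set, nothing is read from the comparison. NPC2, the most abundant of them, was lower by a small margin in both arms. SREBF1, SREBF2 and SCAP rested on few reads and did not differ in 1 direction across both arms. NPC1 was higher on day 3 in both arms, past 1.5-fold on TPM + 1 with SNHG26 guides only. In bulk RNA, fewer cells of a type and less RNA per cell cannot be told apart. Complete separation of the libraries of 1 day from those of the other can readily arise by chance with so few libraries. The share of all genes that separate in this way is not given here, so such separation is only described.

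INSIG1 (GRCh38, chr7:155297776-155310235, plus strand) had 2.94 TPM on day 2 with SNHG26 guides and 11.0 TPM on day 2 with control guides, and was listed at 0 in both day 3 libraries. The day 2 and day 3 libraries thus did not overlap, and the day 2 libraries differed widely from each other (6.98 ± 5.71 TPM, SD, n = 2). The values amount to at most 5.03 and 17.1 reads on day 2 over the full gene, and to at least 1 and 1.13 reads if they came from its shortest annotated transcript. Taking 3 reads over the full gene as the limit that a count of 0 allows, day 3 lay under 1.57 TPM with SNHG26 guides and under 1.62 TPM with control guides. The day 2 values, taken without counting error, were 1.87-fold above that limit with SNHG26 guides and 6.81-fold above it with control guides. With counting error on both days, the 95% Poisson intervals over the full gene overlapped with SNHG26 guides, at 0.958 to 6.85 TPM and 0 to 1.93 TPM. With control guides they stood apart, at 6.425 to 17.6 TPM and 0 to 1.99 TPM. A shorter transcript would raise the limit, lower these ratios and widen the intervals. Neither the ratios nor the separation with control guides hold if the day 2 values are as few as 1 to 3 reads. On log2(TPM + 1), which depends on the added 1 for a gene listed at 0, the difference was -1.98 and -3.59.

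STARD4 (GRCh38, chr5:111496033-111512590, minus strand) had 13.5 and 12.1 TPM on day 2 and 7.65 and 6.49 TPM on day 3, each pair given with SNHG26 guides first. Both day 2 libraries were above both day 3 libraries, with 12.8 ± 0.965 TPM against 7.07 ± 0.820 TPM (SD, n = 2 per day). The level on day 3 was 1.76-fold lower with SNHG26 guides and 1.87-fold lower with control guides. These values rest on 6.08 to 30.6 reads per library, depending on the transcript spans assumed, and the 95% Poisson intervals of the days overlapped within each arm (9.14 to 19.2 TPM against 4.63 to 11.9 TPM with SNHG26 guides, and 7.85 to 17.9 TPM against 3.71 to 10.5 TPM with control guides). Such intervals cover counting error only, and they are at least this wide, since the read numbers behind them are upper limits and PCR copies are not independent molecules.

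TMEM97 (GRCh38, chr17:28319200-28328685, plus strand) had 51.3 and 47.0 TPM on day 2 and 32.9 and 23.8 TPM on day 3 in the same order. The days again did not overlap, at 49.2 ± 3.00 TPM against 28.3 ± 6.39 TPM (SD, n = 2 per day). The day 3 level was 1.56-fold lower with SNHG26 guides and 1.98-fold lower with control guides. In the control arm the Poisson intervals of the days stood apart, at 35.5 to 61.2 TPM and 16.5 to 33.3 TPM, whereas in the SNHG26 arm they overlapped, at 39.7 to 65.2 TPM and 24.2 to 43.6 TPM. These intervals assume reads over the full gene. With as few as 38.8 and 23.5 reads on days 2 and 3, the control intervals would be wider and might not stand apart.

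NPC2 (GRCh38, chr14:74476192-74494177, minus strand) was the best measured of the genes, with at least 166 reads in every library. It had 146.0 and 144.8 TPM on day 2 and 134.1 and 128.3 TPM on day 3. The day 2 libraries were the higher pair, at 145.4 ± 0.830 TPM against 131.2 ± 4.06 TPM (SD, n = 2 per day), but the difference was only 1.09-fold with SNHG26 guides and 1.13-fold with control guides, and the Poisson intervals of the days overlapped in both arms.

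**Figure D1:**
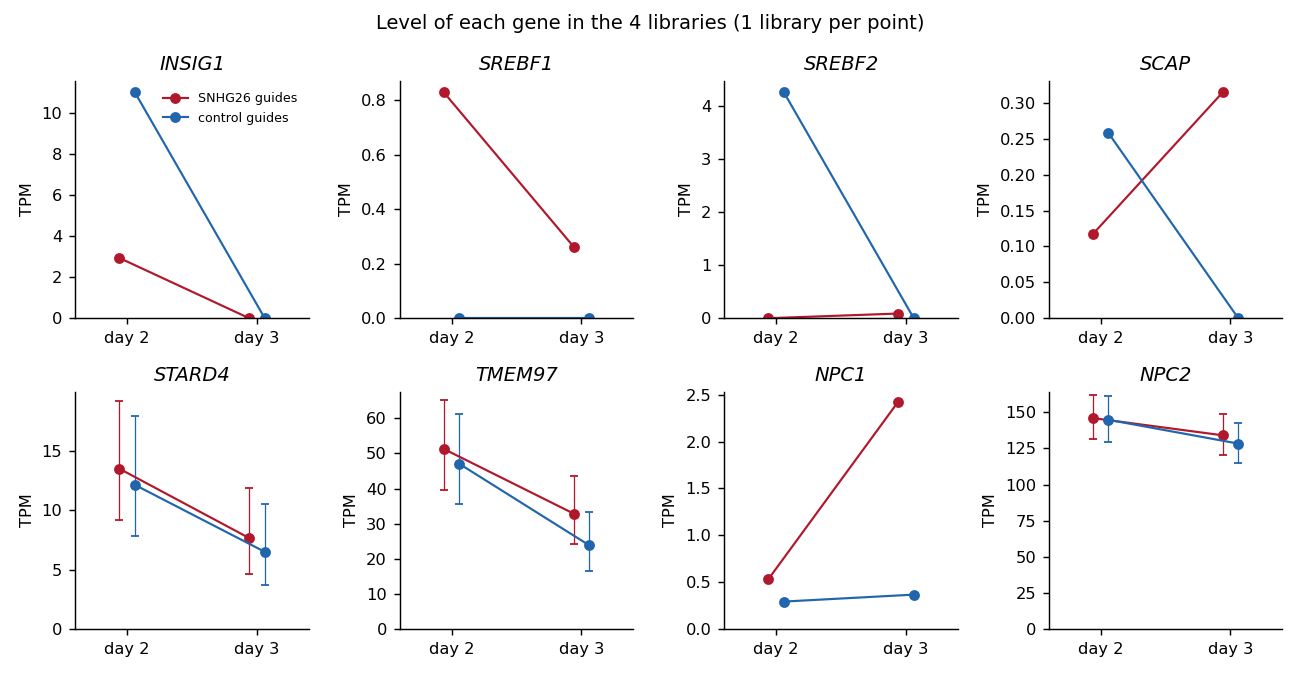
TPM of the 8 genes in each of the 4 libraries (vertical axes in TPM from 0, 1 panel per gene, a line joining the libraries of an arm), with 95% Poisson intervals for STARD4, TMEM97 and NPC2 only. Both day 3 libraries lie below both day 2 libraries for INSIG1, STARD4, TMEM97 and NPC2, and INSIG1 is listed at 0 in both day 3 libraries. The share of all genes that separate the days in this way is not given here.

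The transcription factor genes could hardly be measured. SREBF1 (GRCh38, chr17:17810399-17837002, minus strand) had 0.829 and 0.262 TPM on days 2 and 3 with SNHG26 guides, and was listed at 0 in both control libraries. Each value above 0 matched a single read, on a span of 8792 bases annotated as a nonsense-mediated decay transcript on day 2 and on a protein-coding span of 24915 bases on day 3. The higher TPM of day 2 in that arm is thus 1 read against 1 read on a longer span.

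SREBF2 (GRCh38, chr22:41833105-41907306, plus strand) had 4.26 TPM on day 2 with control guides, 0.0880 TPM on day 3 with SNHG26 guides, and 0 in the other two libraries. The value of 4.26 TPM matched 2 reads, of which 1 lay on a retained-intron transcript of 1936 bases and 1 on a span of about the whole gene. The value of 0.0880 TPM matched 1 read. SREBF2 therefore passed the filter on a mean of 1 TPM through a single read on a short span, and its differences are not read as a change of level.

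SCAP (GRCh38, chr3:47413681-47477126, minus strand), the escort protein, had 0.117, 0.315 and 0.258 TPM in the 2 libraries with SNHG26 guides (days 2 and 3) and in the control library of day 2, and 0 in the control library of day 3. Those values matched 1, 3 and 2 reads on the same span of 62262 bases.

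NPC1 (GRCh38, chr18:23506184-23586506, minus strand), the lysosomal membrane transporter, was higher on day 3 past 1.5-fold on TPM + 1 in the SNHG26 arm, which none of the other members was in either arm on that scale. It had 0.530 TPM on day 2 and 2.42 TPM on day 3 with SNHG26 guides, and 0.292 and 0.366 TPM with control guides. The library of day 3 with SNHG26 guides stood above the other 3. Those would be 4, 2 and 3 reads (day 2 with SNHG26 guides, then days 2 and 3 with control guides) on a common span of 55065 bases. That span was solved from these same values as the one giving the fewest whole reads. It was not matched to an annotated transcript, so these read numbers are an inference. The high value is at most 29.8 reads and did not come out as whole reads on that span.

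**Figure D2:**
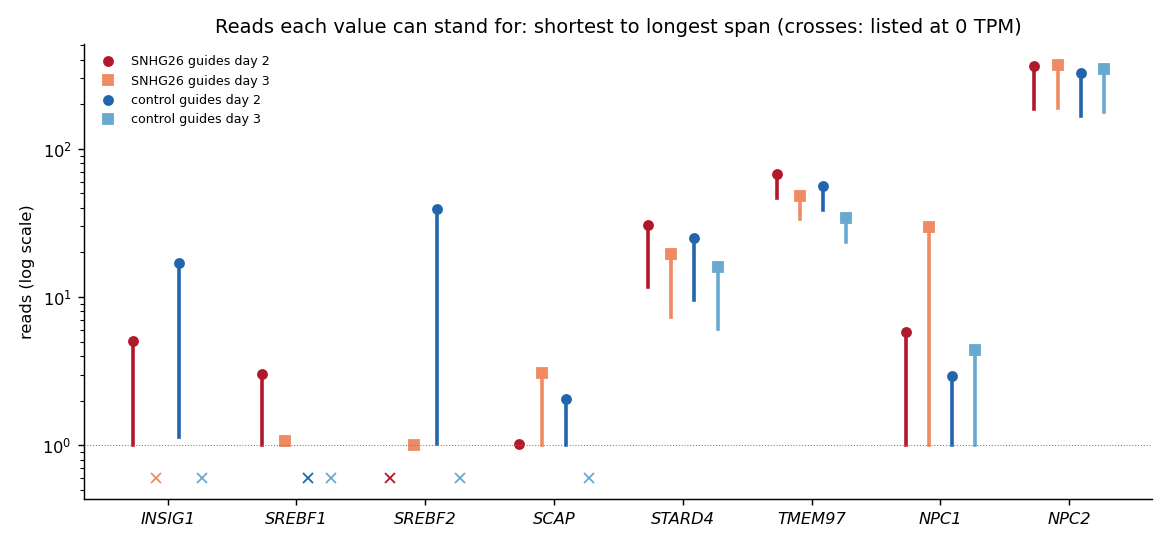
Range of read numbers behind each value, per gene and library (log axis), from the shortest annotated transcript, with a minimum of 1 read, to the longest span. Crosses mark libraries listed at 0. NPC2 rests on 166 to 369 reads and TMEM97 on 23.5 to 67.5, while SREBF1 and SCAP rest on at most 3.03 and 3.06 reads in any library.

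Per genomic span, the level of NPC2 (128.3 to 146.0 TPM over the libraries) was above that of TMEM97 (23.8 to 51.3 TPM), and TMEM97 above STARD4 (6.49 to 13.5 TPM), with no overlap between neighbours. INSIG1, at 0 to 11.0 TPM, overlapped STARD4, and the 4 others overlapped each other and INSIG1. Of the genes, 5 share bases with an opposite-strand neighbour that has reads of its own. INSIG1 overlaps its divergent transcript INSIG1-DT by 1267 bases (0, 0.736, 4.91 and 4.11 TPM, SNHG26 guides on days 2 and 3 and then control guides), STARD4 overlaps STARD4-AS1 by 2195 bases, TMEM97 overlaps IFT20 by 361 bases, NPC2 overlaps ISCA2 by 422 bases and NPC1 overlaps RMC1 by 25639 bases. Whether the authors' counting used strand is not given in the sources used here, so reads in those overlaps cannot be told apart.

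The promoters of INSIG1, STARD4, TMEM97 and SREBF2 are shown because INSIG1, STARD4 and TMEM97 were the genes lower on day 3 in both arms and SREBF2 holds the sterol element searched for. The stretches lie before all annotated starts and come from RefSeq (GRCh38.p14), read 5′ to 3′ along the gene. Capitals mark the CCAAT box (CCAAT or its reverse complement ATTGG) and, in SREBF2, a match to TCACNCCAC.

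INSIG1 (chr7:155297628-155297775, plus strand): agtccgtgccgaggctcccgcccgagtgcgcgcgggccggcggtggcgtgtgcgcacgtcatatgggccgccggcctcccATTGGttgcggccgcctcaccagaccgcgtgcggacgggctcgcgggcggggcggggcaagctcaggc
STARD4 (chr5:111512591-111512785, minus strand): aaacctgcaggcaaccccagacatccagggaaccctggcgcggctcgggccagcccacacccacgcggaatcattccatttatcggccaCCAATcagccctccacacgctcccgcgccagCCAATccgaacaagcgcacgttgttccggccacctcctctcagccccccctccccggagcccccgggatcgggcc
TMEM97 (chr17:28318950-28319094, plus strand): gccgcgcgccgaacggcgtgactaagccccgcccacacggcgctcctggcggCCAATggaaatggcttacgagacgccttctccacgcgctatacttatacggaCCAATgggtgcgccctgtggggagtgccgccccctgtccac
SREBF2 (chr22:41832855-41833078, plus strand): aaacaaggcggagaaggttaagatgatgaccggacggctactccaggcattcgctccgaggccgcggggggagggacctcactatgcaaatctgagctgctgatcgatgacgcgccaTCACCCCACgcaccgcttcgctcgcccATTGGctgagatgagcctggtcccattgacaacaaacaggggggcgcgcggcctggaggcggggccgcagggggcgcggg

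All 8 genes matched a RefSeq promoter, 9 promoters in all, each 250 bases before to 50 bases after a start. Searching both strands, the sterol element TCACNCCAC was in the window of 1 of the 8 genes, SREBF2, against 1.13% of all 35116 promoters. CCAAT was in the windows of 5 genes (INSIG1, NPC2, SREBF2, STARD4 and TMEM97) against 34.6% of promoters. The E-box CACGTG was in those of INSIG1 and SCAP against 7.26%, and the GC box GGGCGG was in all 8 against 45.0%. The INSIG1 E-box lies nearer the start than the stretch printed above. No capitalised match overlaps another. A match is a description of letters, and the absence of one says only that these letters are not in the window.

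Across the 8274 genes averaging 1 TPM or more, 18.8% were lower by at least 1.5-fold on TPM + 1 on day 3 with SNHG26 guides and 21.0% were higher. Of the 8 genes, 3 (INSIG1, STARD4 and TMEM97) were lower and 1 (NPC1) was higher. With control guides 20.9% of all genes were lower and 20% higher, and among the 8 there were 4 lower, SREBF2 being the additional one, and 0 higher. Lower in both arms were 5.49% of genes and 3 of the 8, and higher in both arms 5.62% and 0 of the 8. SREBF1, SCAP and NPC1 averaged under 1 TPM and are not among the genes behind these shares. Of the 5 members that are, 3 were lower in both arms and 0 were higher in either arm. The 1.5-fold limit was set after the values were seen, in place of a planned 2-fold limit. At 2-fold on TPM + 1, INSIG1 alone of the 8 was lower in both arms. On log2(TPM + 1), STARD4 differed by -0.74 and -0.81 and TMEM97 by -0.63 and -0.95, SNHG26 guides first. The share of all genes past 2-fold is not given here. Because the day difference chose the set, all these counts describe it and support nothing. The median day difference of the 8 genes was -0.33 with SNHG26 guides and -0.57 with control guides on log2(TPM + 1), where genes that were at 0 set against their bound give -0.33 and -0.49, and the median of all genes tested was 0.00 and -0.02.

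**Figure D3:**
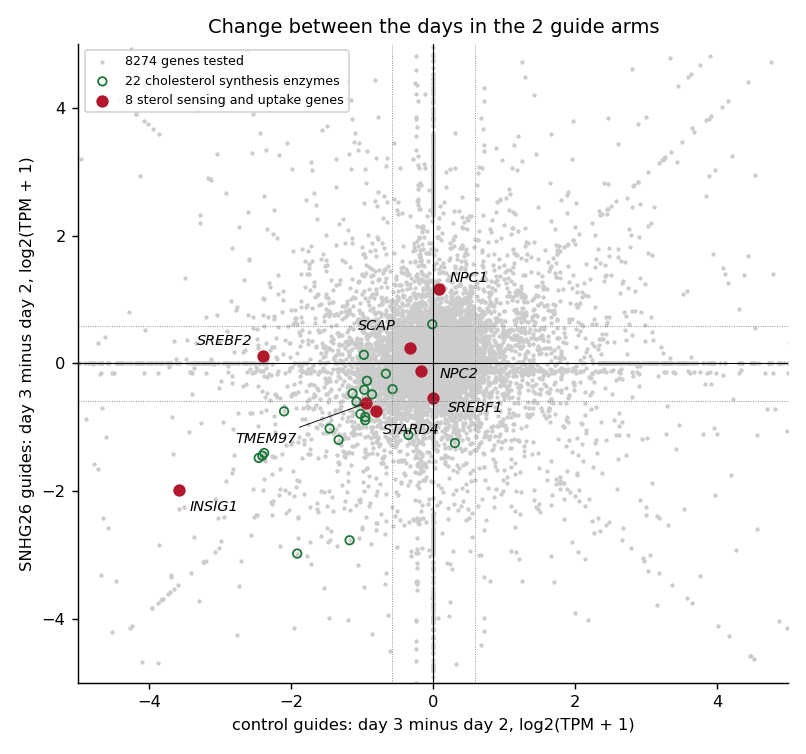
Difference between day 3 and day 2 on log2(TPM + 1) with control guides (horizontal) and with SNHG26 guides (vertical), for all 8274 genes tested in grey, the cholesterol synthesis enzymes as open circles and the 8 genes named; dotted lines mark 1.5-fold. INSIG1, STARD4 and TMEM97 lie in the lower left quadrant past the 1.5-fold lines, NPC2 lies near the centre, and 156 genes lie outside the plotted range.

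In limma, which treated the arms as replicates of a day, 3 of the 8274 genes (0.0363%) had an adjusted p under 0.05 between the days, and 0 of the 5 tested members were among them. An unadjusted p under 0.05 was found for 3 (INSIG1, STARD4 and TMEM97), which supports nothing, since the set was chosen from these differences and INSIG1 passed the filter on low values through its day 2 libraries alone. Mean differences from that fit were -2.78 for INSIG1 (SE 0.70), -0.78 for STARD4 (SE 0.26), -0.79 for TMEM97 (SE 0.25) and -0.15 for NPC2 (SE 0.15), on log2(TPM + 1). The difference between the arms in the day difference had its own contrast in the fit, where 8 genes (0.0967%) passed and 0 of the 5 members did, with 0 of them at an unadjusted p under 0.05.

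Between the guide sets no gene of the 8 was past 1.5-fold in the same direction on both days. On day 2, INSIG1 and SREBF2 were the lower genes with SNHG26 guides (2.94 against 11.0 TPM, and 0 against 4.26 TPM) and SREBF1 the higher one, by 1 read against 0; 19.5% of all genes were lower and 18.4% higher by the same measure. On day 3, NPC1 was the 1 higher gene, at 2.42 against 0.366 TPM, and 0 were lower, against 18.3% of all genes lower and 20.1% higher. Across both days 4.7% of all genes were lower and 4.31% higher. These shares are over genes averaging 1 TPM or more, which SREBF1 and NPC1 did not. STARD4, TMEM97 and NPC2 were above the control library on both days but by little, with log2(TPM + 1) differences of 0.14 and 0.21 for STARD4, 0.12 and 0.45 for TMEM97, and 0.01 and 0.06 for NPC2. On day 3, 7 of the 8 genes had a higher TPM with SNHG26 guides and INSIG1 was listed at 0 in both libraries, while on day 2 there were 5 higher and 3 lower. The median guide difference of the 8 genes was 0.07 on day 2 and 0.27 on day 3, and 0.01 and 0.03 with genes at 0 set against their bound, beside 0.00 and 0.03 for all genes tested. The arms overlapped for STARD4, TMEM97 and NPC2, with means of 10.6 ± 4.13 and 9.31 ± 3.99 TPM for STARD4, 42.1 ± 13.0 and 35.4 ± 16.4 TPM for TMEM97, and 140.0 ± 8.43 and 136.6 ± 11.7 TPM for NPC2 (SD, n = 2, SNHG26 guides first). The arms did not overlap for SREBF1 (0.829 and 0.262 TPM against 0 and 0) and NPC1 (0.530 and 2.42 TPM against 0.292 and 0.366 TPM), which rest on few reads in most libraries. The share of all genes whose arms do not overlap is not given here, and nothing is read from it. In limma, 0 of the 8274 genes (0.0%) had an adjusted p under 0.05 between the guide sets, with 337 at an unadjusted p under 0.05 and 0 of the 5 members among those.

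Other genes that handle the transcription factors lay in both directions between the days. INSIG2, the other endoplasmic reticulum anchor of SCAP, had 1.98 TPM on day 2 and 8.29 TPM on day 3 with SNHG26 guides, and 1.07 and 9.16 TPM with control guides. Both day 3 libraries were above both day 2 libraries, opposite in direction to INSIG1, with differences of 1.64 and 2.30 on log2(TPM + 1) that rest on at most 3.00 to 30.7 reads per library. The site proteases that release the factors, MBTPS1 (1.5 to 2.85 TPM) and MBTPS2 (0.440 to 0.570 TPM), did not separate the days past 1.5-fold in both arms. Of the 15 genes listed that handle these factors, 4 were lower and 2 higher past 1.5-fold with SNHG26 guides, 1 was lower and 1 higher with control guides, and INSIG2 was the 1 gene higher in both. VCP, which extracts ubiquitinated proteins from membranes, had 58.3 and 91.2 TPM with SNHG26 guides and 71.2 and 77.5 TPM with control guides.

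Genes of lipoprotein uptake were likewise spread around 0. MYLIP, a ubiquitin ligase of this pathway, was listed at 0 in every library. Of the 10 of 12 uptake genes listed, 1 was lower and 2 higher with SNHG26 guides, and 0 were lower and 3 higher with control guides. SNX17, a recycling sorting nexin, had 22.7 and 33.2 TPM with SNHG26 guides and 10.8 and 25.8 TPM with control guides, and was the higher on day 3 in both arms. PGRMC1, a partner of TMEM97, had 123.9 and 98.2 TPM and then 105.0 and 72.2 TPM, and was the lower on day 3 in both.

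Of the 19 genes of intracellular sterol transport, 2 were lower and 4 higher with SNHG26 guides, and 1 was lower and 2 higher with control guides, with 0 in common in either direction. Among 8 of 11 efflux and storage genes listed, 0 were lower and 1 higher with SNHG26 guides, and 1 lower and 1 higher with control guides. NR1H2, a sterol-activated nuclear receptor, had 6.29 and 6.80 TPM with SNHG26 guides and 2.57 and 4.79 TPM with control guides. APOE, a lipoprotein component, was at 370.4 and 300.8 TPM with SNHG26 guides and 260.5 and 232.2 TPM with control guides. ABCA1, the cholesterol exporter, was listed at 0 in every library.

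The cholesterol synthesis enzymes were mostly lower on day 3, as INSIG1, STARD4 and TMEM97 were. Of 10 mevalonate enzymes 7 were lower past 1.5-fold with SNHG26 guides and 8 with control guides, 6 of them in both arms, with median differences of -1.07 and -1.27. Of 12 enzymes from squalene to cholesterol, 7 were lower with SNHG26 guides and 10 with control guides, 6 of them in both, with medians of -0.77 and -0.97. Among all genes tested, 18.8% were lower with SNHG26 guides, 20.9% with control guides and 5.49% in both arms. HMGCS1, which makes HMG-CoA, had 63.7 and 22.2 TPM on days 2 and 3 with SNHG26 guides and 49.4 and 8.17 TPM with control guides. ACAT2, which makes acetoacetyl-CoA, had 161.4 and 58.6 TPM and then 137.1 and 25.0 TPM. In both enzymes the day 3 libraries lay well below the day 2 libraries. MVD, a decarboxylase, had 94.5 and 35.1 TPM and then 92.1 and 16.8 TPM, and FDPS, which makes farnesyl diphosphate, had 216.9 and 106.5 TPM and then 217.3 and 78.3 TPM. In the later steps, SQLE, the squalene epoxidase, had 39.3 and 27.7 TPM and then 36.8 and 19.8 TPM. DHCR7, the reductase at the end of the pathway, had 29.2 and 12.2 TPM and then 19.7 and 7.20 TPM. LSS, which closes the sterol rings, had 18.2 and 1.81 TPM and then 27.9 and 11.7 TPM, and MSMO1, a demethylating oxidase, had 66.9 and 35.6 TPM and then 62.1 and 31.4 TPM. Each of these 8 enzymes had both day 3 libraries below both day 2 libraries, a separation whose share over all genes is not given here. The lists were chosen with these day differences known, and ACAT2, MVD, FDPS, DHCR7, LSS and MSMO1 were named for a same-sign day difference in both arms, so these values and medians are a description with no test.

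**Figure D4:**
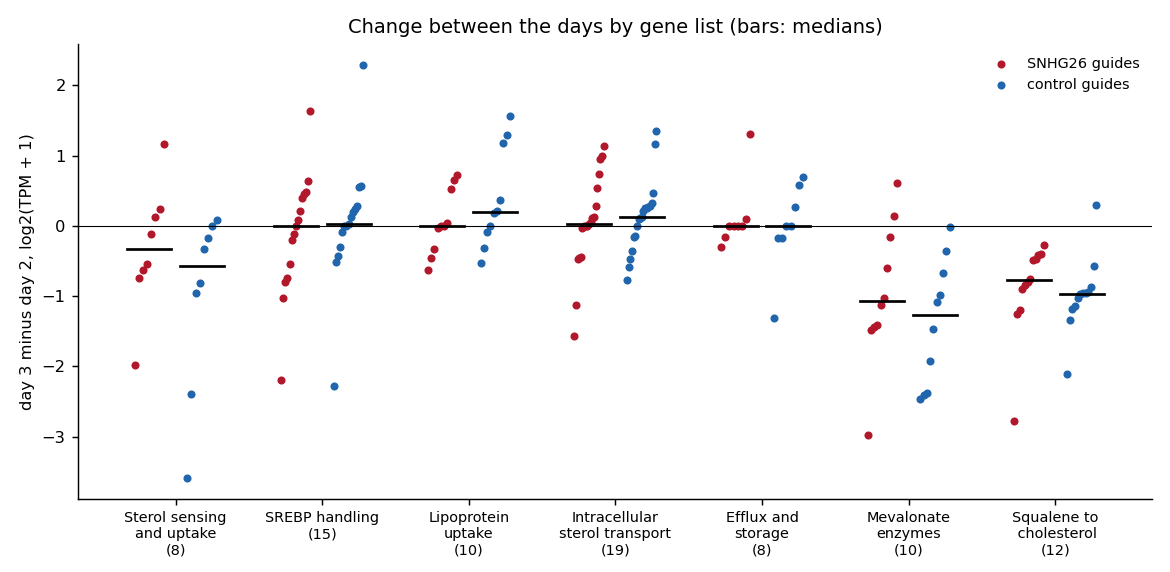
Day 3 minus day 2 on log2(TPM + 1) for each listed gene of 6 lists, by guide arm, with the list median as a bar and the 8 genes beside them. The mevalonate and squalene lists lie mostly below 0 in both arms, while SREBP handling, uptake, transport and efflux lists straddle 0.

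Among genes averaging 20 TPM or more, those with the profile nearest to the mean of STARD4, TMEM97 and NPC2 over the 4 libraries were DBI, SLC27A5 and SRI, at root mean square distances of 0.0296, 0.0467 and 0.0561 on the centred log2(TPM + 1) scale, from 2030 genes compared. DBI, an acyl-CoA binding protein, had 587.4 and 400.0 TPM with SNHG26 guides and 546.5 and 334.9 TPM with control guides, higher on day 2 in both arms. Nearest to INSIG1 alone, from 2032 genes, were GTF3C6P2, ACTC1 and H3C6, at larger distances of 0.578, 0.639 and 0.714, none of which is listed at 0 on day 3 as INSIG1 is. With 4 libraries, likeness of profile is a description only.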

How the data were processed

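The authors deposited 1 table of TPM per gene for the 4 libraries; reads were aligned to GRCh38 with minimap2 2.24-r1122, per the submitters' processing notes, and the counter, annotation release, filters and strand setting are not given in the sources used here. In the deposited TPM, the 13 mitochondrial mRNAs and 20.6% of the genes above 0 equalled whole reads over the genomic span (tolerance 0.0001 read). Read ranges for other genes use GENCODE v29 transcript spans. The value of 1 read depends on the transcript, so no count model was run.

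Values were analysed as log2(TPM + 1), which understates differences of low genes, for genes averaging 1 TPM or more, with limma 3.58.1 in R 4.3.3 (eBayes with trend, two-sided, Benjamini-Hochberg adjustment over 8274 genes, threshold 0.05). The libraries are not stated to be separate cultures, so p-values measure only the spread between libraries, which may be technical, and the day comparison treats libraries with different guides as replicates. The script was tested on simulated data. Gene members and lists were chosen with earlier results of these data known. Besides members, text genes are MYLIP, INSIG2, MBTPS1, MBTPS2, HMGCS1 and SQLE, and from each list up to 3 more that averaged 5 TPM or more and had the same sign of the day difference in both arms, ranked by the smaller difference. No gene of the transport list met that rule, and a few other genes of the lists are not reported here by name. Alternatives were a pseudocount of 0.1 or 5, all genes above 0, only genes averaging 5 TPM or more, quantile and median ratio scaling, no trend, a replicate block and each library left out.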

Additional observations from a re-analysis of the deposited data

Results flagged for a closer look

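The test of whether the day difference differed between the guide arms called 8 of the 8274 genes (limma, adjusted p under 0.05). None of the 5 tested sterol genes is among them. Named after their values were seen, the genes called are the small nucleolar RNAs SNORA44, SNORA74D and SNORD35B, the mitochondrial tRNAs MT-TH, MT-TL1 and MT-TV, the spliceosomal RNA RNU5D-1 and the pseudogene RPL41P1. In TPM, 1 read on a short span is worth more than 1 read on a long one (0.653 to 0.803 TPM on 10 kb). The reads behind these 8 genes are not given here, and whether the calls rest on few reads was not tested. The same test called 0 genes with 5 added to TPM, without a filter or without a trend. It called 7 with either scaling, 14 with 0.1 added and 13 over genes averaging 5 TPM or more. The calls are listed as a description only.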

How the results depend on the processing

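Between the days, limma called 3 genes, and 3 again over genes averaging 5 TPM or more or after median ratio scaling. It called 0 after quantile normalization, without a trend, without a filter and with a pseudocount of 0.1 or 5, and 0 to 0 with any library left out. The fit with guide arm as replicate block called 0, with 482 at an unadjusted p under 0.05. Same-day libraries shared little deviation from their arm means (correlation 0.0464 over the genes tested). Libraries of an arm shared little deviation from their day means (correlation -0.00651). Between the guide sets it called 0 in every setting, with 359 at an unadjusted p under 0.05 with the day as a replicate block. For the difference between arms it called 8 genes, 14 when 0.1 was added to TPM, 13 over genes averaging 5 TPM or more, 7 with either scaling and 0 when 5 was added, without a filter or without a trend. The median day difference of the 8 members, -0.52, was -0.75 with a pseudocount of 0.1, -0.29 with 5 and -0.66 to -0.34 with a library left out, the last without the control library of day 3. Their median guide difference, 0.14, was -0.12 to 0.59 with a library left out: -0.03 without the SNHG26 library of day 2, 0.59 without the control library of day 2 and -0.12 without that of day 3. The cause was not tested. INSIG1, STARD4, TMEM97 and NPC2 kept the sign of the day difference in 8 of 8 alternatives, SREBF1, SREBF2 and NPC1 in 7 and SCAP in 6. In fits with a library left out, the lone library of a side is assumed to vary like the others. SREBF1, SREBF2 and SCAP rest on 1 to 3 reads a value, so no difference in them is detectable at this depth.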
